A study of Mus musculus with 2 samples.

Results

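Genes of the cilium were described in 2 single-cell libraries of the mouse cerebral cortex. They were all genes whose symbol starts with Cfap, Dnah, Dnaic, Rsph or Tekt, or with Ift followed by a digit, and that had at least 10 unique molecules (UMIs) over both deposited tables in the cells kept. Of 77 matching symbols, 73 met the minimum, out of 17753 genes of any name that did. They were 30 Cfap, 15 Dnah, 2 Dnaic, 7 Rsph, 5 Tekt and 14 Ift genes. The first 5 families, 59 genes, are called motile families below. Cfap97d1 with 5 UMIs, Dnah17 with 6, Ift88os with 4 and Rsph6a with 1 fell below the minimum, and the members nearest above it were Cfap73 and Cfap99 with 26 UMIs each. The symbol and the UMI minimum chose the genes, without regard to cell class. A gene with few UMIs can still pass the minimum through the class where it is high. The choice was also made with earlier results of these data known.

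The study asked how varied activated fibroblasts are in the cortex of mice that lack Pdgfra in the neural lineage and have little myelin. The N-PRα-KO library came from mice of the genotype Nestin-Cre;Pdgfraflox/flox, and the control library from C57BL/6J (WT) mice. The cortex was dissociated together with its meninges, cells carrying CD140a were pulled out with magnetic beads, and the BD Rhapsody system captured them for whole-transcriptome counting. CD140a is the protein of Pdgfra, the floxed gene itself, so the sort could take different cells from the 2 genotypes. Nestin-Cre acts in neural progenitors, from which ependymal cells also come, and not in microglia. The labels give neither age, sex nor the number of animals per library.

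There was 1 library per genotype, so no comparison between genotypes has a test, and each interval below is a 95% interval that covers counting error only. Differences between the libraries in animals, preparation, sorting, run and genotype cannot be told apart. The libraries also stood apart in quality. The N-PRα-KO library kept 4196 of 8336 barcodes (50.3%) and the WT library 10069 of 11438 (88.0%), and after doublet removal 4186 and 9895 cells remained, with medians of 5781 and 3264 UMIs per cell. Pdgfra itself had 1928 CPM (UMIs of a gene relative to all UMIs of the class, on a common scale) in the 67 N-PRα-KO oligodendrocyte-lineage-like cells and 4635 CPM in the 5057 WT ones. Which part of the gene is floxed is not stated in the labels, and UMIs from transcript ends need not lie in it, so this is no check of the deletion. The libraries shared 38 cell barcodes, 0 of them among the ependymal-like cells.

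Motile cilia are beating hairs built around a ring of microtubule doublets and a central pair of microtubules. Dynein arms on the doublets slide them against each other, radial spokes carry signals between the central pair and the arms, and tektins and other proteins run inside the doublet wall. Ependymal cells, which line the brain ventricles, carry tufts of such cilia that move cerebrospinal fluid. Ift genes encode intraflagellar transport particles, which carry cargo along motile cilia and along the single primary cilium that most other cells bear, so they are not particular to beating cilia.

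Factors of the RFX family bind a palindromic element, the X-box, in the promoters of many ciliary genes, and FOXJ1, a forkhead factor, switches on the motile programme. Promoters of 58 of the 73 members were found by symbol in RefSeq on GRCm38.p6, as windows of 300 bases from 250 before to 50 after the start. The X-box was searched as the letters GTNNCC and GNAAC with any 3 bases between them, on both strands. It was present in 8 of 58 members (13.79%), Cfap206, Cfap298, Cfap44, Cfap45, Cfap61, Tekt4, Ift22 and Ift57, and in 2.49% of 27025 genes with a window of this length. The stricter form, GTTNCC and GGNAAC with AT between them, whose matches are all also matches of the looser form, was in 0 of 58 members and 0.1517% of all genes. The forkhead letters GTAAACA on both strands were in 3 of 58 members (5.172%), Cfap20, Cfap43 and Tekt3, against 4.052% of all genes. Printed here, because both a motile family and intraflagellar transport are among them, are the 120 bases before the start for 5 of the 8 members, read 5′ to 3′ on the gene's strand, with matches of the looser X-box in either orientation in capitals.

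Cfap206, minus strand, chr4:34730207-34730326: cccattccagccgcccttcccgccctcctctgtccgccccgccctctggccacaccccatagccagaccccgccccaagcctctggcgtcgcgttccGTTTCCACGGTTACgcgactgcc
Cfap44, plus strand, chr16:44394679-44394798: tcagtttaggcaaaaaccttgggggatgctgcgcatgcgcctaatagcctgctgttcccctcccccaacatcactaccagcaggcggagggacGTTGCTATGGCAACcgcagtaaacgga
Cfap45, plus strand, chr1:172521010-172521129: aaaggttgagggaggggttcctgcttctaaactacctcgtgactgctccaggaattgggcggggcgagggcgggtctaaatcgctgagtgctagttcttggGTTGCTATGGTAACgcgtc
Ift22, plus strand, chr5:136908030-136908149: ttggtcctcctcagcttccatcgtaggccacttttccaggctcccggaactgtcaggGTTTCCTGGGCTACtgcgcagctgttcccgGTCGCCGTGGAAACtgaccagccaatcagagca
Ift57, plus strand, chr16:49699174-49699293: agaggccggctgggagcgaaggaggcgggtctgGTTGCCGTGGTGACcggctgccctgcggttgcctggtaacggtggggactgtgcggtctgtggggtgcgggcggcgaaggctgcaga

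Ift22 holds 2 matches in this window, and the others hold 1 each. These are matches of letters, not measured binding. Among motile-family members, the 6 with a match had a median log2 level in ependymal-like cells over other cells (described next) of 4.30 in N-PRα-KO and 6.20 in WT, and the 41 without one had 4.49 and 5.75.

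Cells were clustered without the members and without the listed cilium genes described below, and clusters were named from marker genes. The ependymal-like class held 498 N-PRα-KO cells (11.9% of the cells used) and 347 WT cells (3.51%). All 10 ependymal markers were detected there in both libraries. Among the markers, Foxj1 is the switch of the motile programme, so the name of the class is not fully independent of the biology that the members belong to. Ependymal cells line the ventricles rather than the cortex, and the labels name only cortex with meninges. Pdgfra had 25.8 CPM in the ependymal-like cells of N-PRα-KO and 197 CPM in those of WT. In microglia-like cells, which should lack it, it had 25.3 and 156 CPM. Ependymal-like and microglia-like levels were thus alike in N-PRα-KO, and in WT the counting intervals, 178 to 218 and 139 to 175 CPM, did not meet. The interval of WT astrocyte-like cells, 124.92 to 141.88 CPM, was also lower. The WT ependymal-like interval did meet those of endothelial-like (153.65 to 188.47 CPM), neuronal-lineage-like and mural-like cells. WT border-macrophage-like cells were higher, at 227.59 to 382.2 CPM. The WT ependymal-like level therefore did not stand apart from these classes as a whole.

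The motile families together made up 9771.5 CPM of ependymal-like UMIs in N-PRα-KO (counting interval 9681 to 9863) and 7944 CPM in WT (7821 to 8069). In the other classes of at least 50 cells they summed to between 381 and 1950 CPM in N-PRα-KO and between 148 and 438 CPM in WT. The 14 Ift genes summed to 1968 CPM in N-PRα-KO ependymal-like cells and 1769 CPM in WT. Elsewhere the Ift sums lay between 248 and 1322 CPM and between 176 and 458 CPM. Both sums were therefore highest in ependymal-like cells in both libraries, and the lead of the motile families was the larger.

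Among classes of at least 50 cells, 67 of 73 members were highest in ependymal-like cells in N-PRα-KO, where 14.8% of all 17753 genes were. In WT 70 of 73 were, against 18.1% of all genes. The ependymal-like level was highest with an interval clear of the next class for 54 members in N-PRα-KO and 63 in WT, beside 6.21% and 8.13% of all genes. Against all other cells pooled, 70 of 73 members were at least 2-fold higher in N-PRα-KO, beside 19.7% of all genes. In WT 69 of the 70 members for which a ratio could be formed were, beside 19.5% of all genes. The median log2 ratio over all genes was -0.16 and -0.28.

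**Figure D1:**
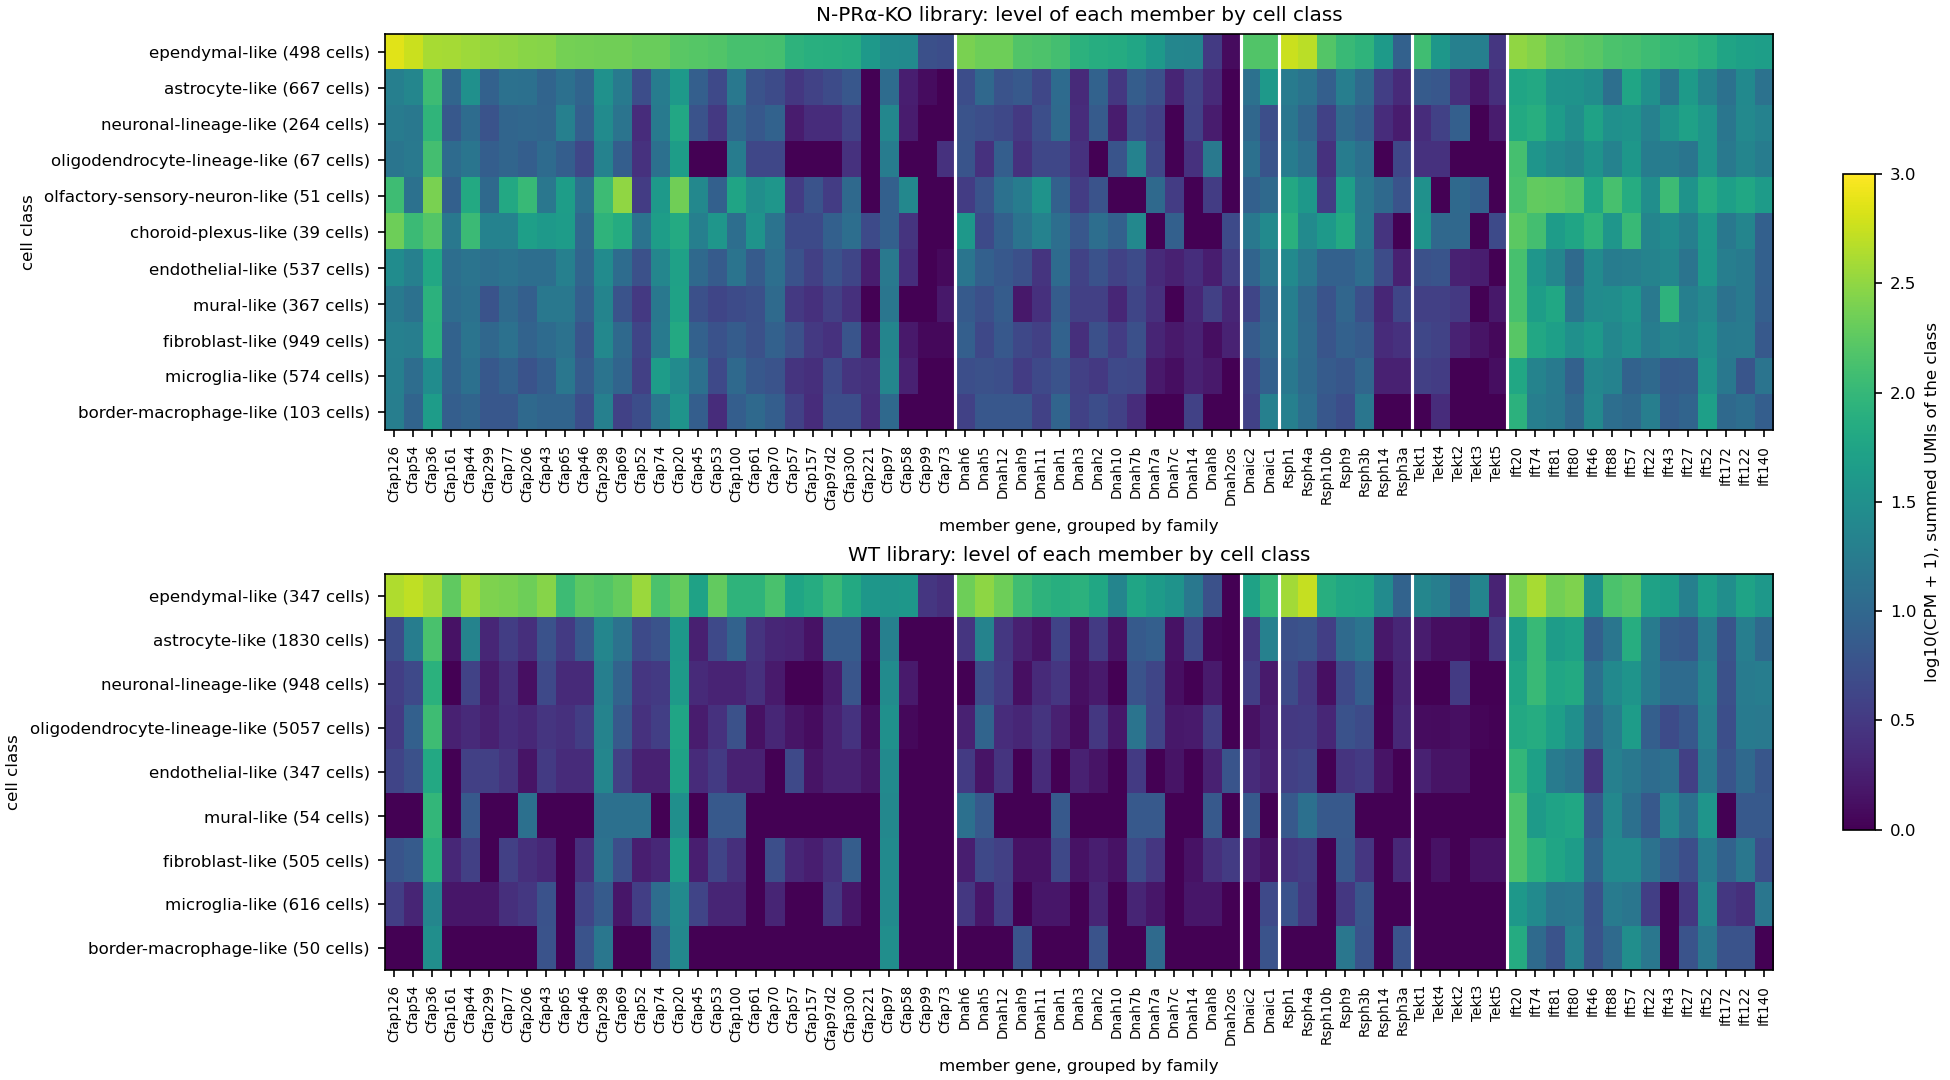
Level of each of the 73 members (columns, grouped by family) in each cell class (rows) of the N-PRα-KO and WT libraries, as log10 of CPM plus 1. The ependymal-like row is the brightest for 67 members in N-PRα-KO and 70 in WT, among classes of at least 50 cells. Ift columns stay coloured across most classes.

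When the ependymal class was instead built cell by cell from its markers, the count of members highest there fell to 31 in N-PRα-KO and stayed at 70 in WT. In WT the rule left out 49 ependymal-cluster cells, under the 50-cell minimum of this ranking, so no member could be highest in them. The counts of the libraries under this rule therefore cannot be set against each other. That rule took 419 N-PRα-KO cells, 408 of them among the 498 of the cluster-based class. Another 36 members were highest in the 90 N-PRα-KO ependymal-cluster cells that the rule left out, so 67 were highest either in the rule's class or in those cells.

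The families differed in how far they stood above other cells. The median member of the motile families was 22.9-fold higher in ependymal-like cells in N-PRα-KO and 67.1-fold in WT. The median Ift gene was 4.59-fold and 4.56-fold higher. By family the median log2 ratio in N-PRα-KO was 4.66 for Cfap, 4.58 for Dnah, 3.87 for Dnaic, 4.35 for Rsph, 3.54 for Tekt and 2.20 for Ift. In WT it was 6.21, 5.72, 5.11, 6.07, 6.20 and 2.19. The 14 Ift genes kept to a narrow band, from 1.27 to 2.92 in N-PRα-KO and from 1.28 to 3.05 in WT. The other cells differ in kind between the libraries, 51.1% of the WT cells being oligodendrocyte-lineage-like and 1.60% of the N-PRα-KO cells, so these ratios are not measures of genotype.

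**Figure D2:**
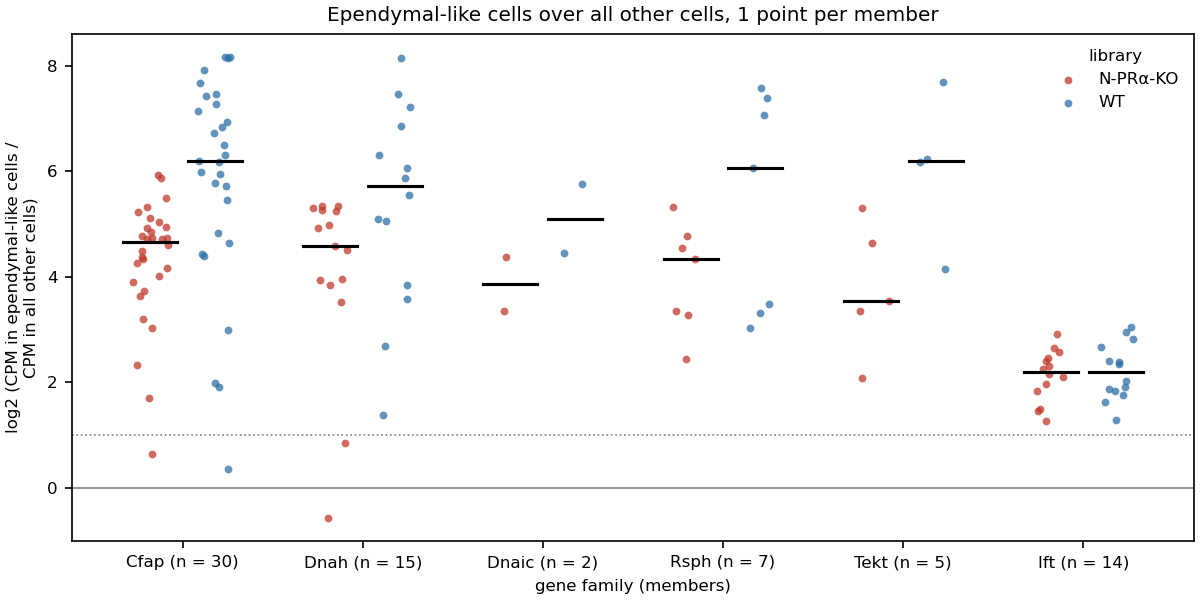
Log2 ratio of CPM in ependymal-like cells over all other cells for each member (points), by family, in each library, with family medians as bars. The motile families have medians between 3.54 and 4.66 in N-PRα-KO and between 5.11 and 6.21 in WT, and Ift lies at 2.20 and 2.19.

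The dynein heavy chains are the motors. Those of the outer arms stood far above other cells. Dnah5 (chr15:28203752-28472052, plus strand) had 218 CPM against 5.38 in other N-PRα-KO cells and 306 against 8.88 in WT. Dnah9 had 152 against 4.0 and 120 against 0.802. Dnah11 had 146 against 3.61 and 86.0 against 1.28. Inner-arm chains did likewise. Dnah6 had 249.3 CPM against 7.89 in N-PRα-KO and 219 against 1.23 in WT, and Dnah12 had 217 against 5.46 and 218 against 1.87. Dnah8, a heavy chain best known from sperm, was barely measured, with 2.20 CPM in N-PRα-KO ependymal-like cells and 4.53 in WT. It was highest in oligodendrocyte-lineage-like cells of N-PRα-KO (15.3 CPM) and in mural-like cells of WT (5.97 CPM, from 1 UMI). Both values rest on few UMIs. Dnah7a, Dnah7b and Dnah7c are near-identical copies on chromosome 1, so how counting split reads between them is uncertain.

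Dnaic1 and Dnaic2 encode intermediate chains of the outer arm, which anchor the motors. Dnaic2 had 154 CPM in ependymal-like cells against 7.38 in other cells of N-PRα-KO and 52.3 against 0.962 in WT. Dnaic1 (chr4:41569775-41638158, plus strand) had 152 against 14.8 and 101 against 4.63, a smaller lead in both libraries. Its next class was astrocyte-like in N-PRα-KO, at 39.7 CPM. Enho, which overlaps Dnaic1 on the opposite strand, had 45.4 CPM in those astrocyte-like cells and 21.4 CPM in ependymal-like cells. Whether counting used strand is not stated in the sources used here, so UMIs of the 2 genes cannot be told apart. A gene on the opposite strand overlaps 40 of the 73 members, among them Cfap97 (Snx25), Rsph9 (Mrps18a) and Dnah8 (Glo1), and the same limit may hold for each. The overlap was taken over whole genes, and whether it reaches the transcript ends was not checked. The limit may also hold for Dnah2os, an antisense RNA inside Dnah2 and the only member that codes for no protein. Dnah2os had 0.220 CPM in ependymal-like cells of N-PRα-KO and 0 in WT. Among classes of at least 50 cells it was highest in endothelial-like cells, at 2.54 and 4.96 CPM. The 39 choroid-plexus-like N-PRα-KO cells had 3.71 CPM. Dnah2 itself was 72.0 and 60.4 CPM in ependymal-like cells.

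Of the radial spoke genes, Rsph4a (chr10:33905111-33916021, plus strand), a spoke-head protein, had 490 CPM against 12.2 in N-PRα-KO and 541 against 2.81 in WT. Rsph1, also of the head, had 579 against 21.04 and 385 against 2.86. Rsph9, another head protein, had less of a lead, at 106 against 11.03 and 60.4 against 5.40. Rsph10b had 156 against 6.67 and 75.5 against 1.12. Rsph3a and Rsph3b, a pair of close copies of a stalk protein on chromosome 17, are uncertain in the same way as the Dnah7 genes.

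Tektins are filament proteins of the doublet wall. Tekt1 (chr11:72344722-72362442, minus strand) had 120 CPM in N-PRα-KO ependymal-like cells against 4.79 in other cells, and 23.1 against 0.321 in WT. Tekt4 had 37.7 against 3.69 and 18.1 against 0.241. Tekt3 had 18.7 against 0.471 and 22.1 against 0.107, and Tekt2 had 19.2 against 1.65 and 8.55 against 0.481. All 4 led in both libraries, though at few UMIs. Tekt5, a tektin of sperm, had only 1.98 CPM in N-PRα-KO and 1.01 in WT ependymal-like cells, and was highest in WT astrocyte-like cells at 1.93 CPM.

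Cfap genes are named only for being found with cilia and flagella, and their ratios spread widely. Cfap126 (chr1:171113918-171126967, plus strand), which has a role in placing cilia, had 739 CPM against 25.7 in N-PRα-KO and 434 against 2.78 in WT. Ependymal-like cells held 83.6% of its UMIs in N-PRα-KO and 89.2% in WT. Cfap54, a central-pair protein (chr10:92775619-93081618, minus strand), had 580 against 18.9 and 520 against 8.21. Cfap44, part of the tether of an inner arm, had 363 against 17.9 and 385 against 5.35. Other Cfap genes were also well represented in other cells. Cfap36 had 402 against 79.8 and 396 against 106, and Cfap97 had 26.9 against 17.3 and 35.2 against 27.5. Cfap20, a doublet-seam protein, had 172 against 53.2 and 194 against 49.1. Of Cfap97 UMIs only 21.7% in N-PRα-KO and 6.37% in WT were in ependymal-like cells.

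The transport genes were led in ependymal-like cells by Ift74, Ift20, Ift81 and Ift80, all of the B particle, which drives transport towards the tip. Ift74 (chr4:94614491-94693229, plus strand) had 274 CPM against 52.0 in N-PRα-KO and 408 against 77.3 in WT. Ift20 had 316 against 116 and 245 against 66.8, and Ift80 had 183 against 24.1 and 259 against 36.9. Ift81 had 206 against 37.2 and 227 against 44.5. Their log2 ratios, 1.45 to 2.92 in N-PRα-KO and 1.88 to 2.81 in WT, were all below those of Rsph1, Rsph4a, Rsph9 and Rsph10b. The A-particle genes Ift122, Ift140 and Ift43 had log2 ratios of 1.49, 2.24 and 1.98 in N-PRα-KO and 1.84, 1.62 and 3.05 in WT, where Ift43 was the highest of the 14.

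In single cells the programme was spread over nearly the whole class. Members of the motile families made up a median of 96.4 of every 10000 UMIs in N-PRα-KO ependymal-like cells (10th to 90th percentile 68.8 to 126) and 79.5 in WT ones (52.2 to 115). With each cell thinned to 2000 UMIs, which left out 50 N-PRα-KO and 79 WT ependymal-like cells, the median cell had UMIs of 14 and 12 of the 59 motile-family members. Unthinned, the medians were 31 and 22. Thinned cells of the other classes had a median of 0 or 1, except 3 in choroid-plexus-like and 3 in olfactory-sensory-neuron-like cells of N-PRα-KO. The 10th percentile of members detected in thinned ependymal-like cells was 10 in N-PRα-KO and 8 in WT. Cells of another class that reached it were rare, with 1 astrocyte-like cell in N-PRα-KO and 2 in WT. Unthinned, more cells reached the percentile of that depth. The largest counts in N-PRα-KO were 31 endothelial-like, 18 of 39 choroid-plexus-like and 15 of 51 olfactory-sensory-neuron-like cells. In WT the largest was 32 astrocyte-like cells.

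Detection of a gene after thinning followed its level. Cfap126 had a UMI in 73.0% of N-PRα-KO ependymal-like cells and 57.1% of WT ones, against 3.66% and 0.412% of microglia-like cells, which should lack it. Cfap54 was found in 67.9% and 66.8%, against 1.75% and 0.206%. Dnah5 was found in 34.2% and 43.3%, against 1.22% and 0.206%. Ift74 was found in 40.4% and 53.4%, with 2.97% and 4.54% of microglia-like cells. The share of microglia-like cells was higher in N-PRα-KO for the 3 motile-family genes and not for Ift74. For Ift74 that share need not be background, since Ift genes are not particular to beating cilia.

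Other genes of the cilium were taken from 12 lists and read against the same backgrounds of 19.7% and 19.5%. Lists of motile-cilium parts were high in the same class as the members. At least 2-fold higher in ependymal-like cells were 9 of 12 arm partners in each library, 12 (N-PRα-KO) and 11 (WT) of 13 dynein assembly factors, 9 and 10 of 10 central-pair genes, and all 11 nexin-link and ruler genes in both. Of 21 other axonemal genes, 20 were in each library. The median log2 ratios of these 5 lists lay between 2.86 and 4.88 in N-PRα-KO and between 4.02 and 6.68 in WT. Dynlrb2, a light chain shared by ciliary dyneins, had 1299 CPM against 66.3 and 1402 against 10.7. Ak7, an adenylate kinase of the central pair, had 856 against 22.8 and 744 against 3.26. Ccdc153, a dynein regulatory protein, had 1837 against 73.9 and 916 against 5.11.

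Lists that serve primary cilia as well stood lower. Of 11 transport subunits outside the members, 9 were at least 2-fold higher in each library, with medians of 2.46 and 2.39, close to the 2.20 and 2.19 of the Ift members. Wdr35, an A-particle subunit, had 172 CPM against 29.6 and 171 against 29.7. Of 10 BBSome genes, which sort membrane cargo, 9 were in each library, with medians of 1.73 and 1.75. Of 15 transition-zone genes, which form the gate at the base of the cilium, 15 were in N-PRα-KO and 13 in WT. Of 10 transport motors 8 and 6 were. Primary-cilium signalling genes did not share the pattern, with 2 of 10 in each library and medians of -0.69 and -0.64. Smo, the receptor-like switch of hedgehog signalling, had 70.7 against 63.2 and 66.4 against 40.6.

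Of 15 regulators of ciliogenesis, 10 were at least 2-fold higher in ependymal-like cells in each library. Foxj1 had 652 CPM against 29.0 in N-PRα-KO and 431 against 4.54 in WT, and Rfx2 had 163 against 21.9 and 133 against 7.70. Of 8 genes of centriole amplification, by which cells make many basal bodies, 3 were higher in each library, with medians of 0.16 and 0.13. Deup1, the core of the structure that multiplies centrioles, was one of them, at 65.9 against 2.63 and 87.5 against 0.481.

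Outside ependymal-like cells the motile families were low, and low to a like degree in most classes. In the N-PRα-KO library the median motile-family member had between 2.56% of its ependymal-like CPM (oligodendrocyte-lineage-like cells) and 4.74% (endothelial-like cells), leaving aside the choroid-plexus-like and olfactory-sensory-neuron-like classes. Tmem212, an ependymal marker outside the members, had between 2.43% and 4.79% in the same classes. In WT the medians ran from 0% in mural-like and border-macrophage-like cells to 2.03% in astrocyte-like cells, and Tmem212 from 0.464% to 1.34%. The mural-like and border-macrophage-like WT classes held only 54 and 50 cells, with 167620 and 205017 UMIs, and the median member had no UMI there. Their motile-family sums, 292 and 161 CPM, were not the lowest, since microglia-like cells had 148 CPM. Ift medians were higher throughout, from 9.35% to 26.6% in N-PRα-KO and from 6.97% to 25.5% in WT. The median of the 10 ependymal markers ran from 2.75% to 5.78% in the same N-PRα-KO classes and from 0.104% to 1.96% in WT, where astrocyte-like cells were again the highest. The members' medians thus lay in about the range of the markers' medians. Both were higher in N-PRα-KO, where ependymal-like cells were 11.9% of cells rather than 3.51%. The part of free RNA in these low levels was not tested.

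**Figure D3:**
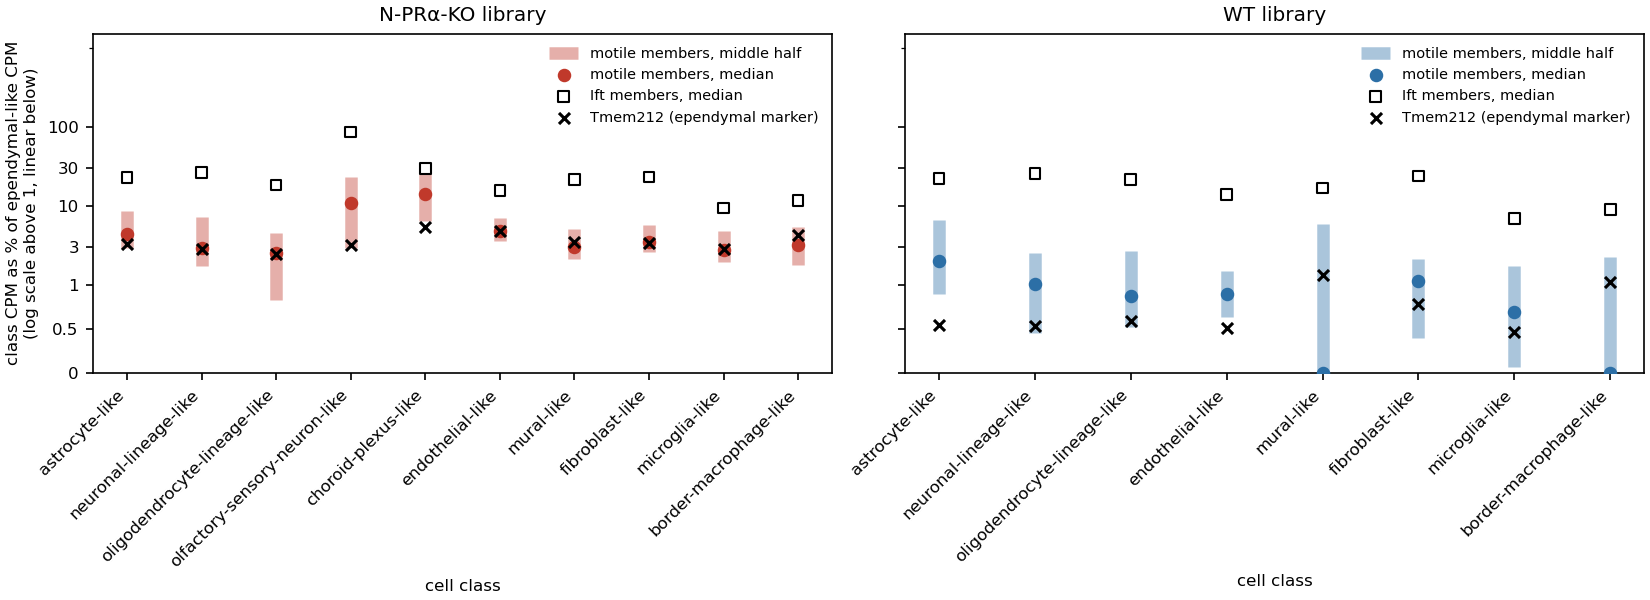
Median CPM of motile-family members in each class as a percentage of their ependymal-like CPM (circles, bars from the lower to the upper quartile of members), with the median Ift member (squares) and the ependymal marker Tmem212 (crosses); the axis is logarithmic above 1% and linear below. Circles and crosses lie close together between 2.43% and 4.79% in most N-PRα-KO classes, and squares lie above both in every class.

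Some members left this common level. Members with at least 3 times the class median, 10 UMIs in the class and 50 ependymal-like UMIs were Cfap20, Cfap36 and Cfap97 in most classes, and Cfap298, a dynein assembly factor, in most classes of WT. Others stood out in fewer classes. Cfap74, a central-pair protein, had 44.9 CPM in N-PRα-KO microglia-like cells, 22.1% of its ependymal-like level, and 10.9 CPM in WT ones, 7.71%. Dnah7b had 20.4 CPM in N-PRα-KO oligodendrocyte-lineage-like cells, from 12 UMIs, and 13.1 CPM in WT ones. Among classes of at least 50 cells, this was the next class after ependymal-like cells in both libraries. The 39 choroid-plexus-like N-PRα-KO cells had more Dnah7b, 24.1 CPM from 13 UMIs. The split between the Dnah7 copies remains uncertain. Dnaic1 had 39.7 and 19.8 CPM in astrocyte-like cells.

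The choroid-plexus-like class, 39 N-PRα-KO cells, had the motile families at 1705 CPM. Choroid plexus epithelium, which secretes cerebrospinal fluid, is continuous with the ependyma and bears its own tufts of cilia. Cfap126 had 215 CPM there, Cfap36 158, Cfap54 111, Cfap44 109 and Rsph9 64.9. The median motile-family member was at 13.98% of its ependymal-like level, the median of the 10 ependymal markers at 10.4%, Tmem212 at 5.32% and Foxj1 at 15.4%. WT had 1 such cell, so there is no second library for these values. Of 9 choroid plexus markers, 8 were detected in N-PRα-KO ependymal-like cells and 9 in WT ones, summing to 1966 and 162 CPM, nearly all from Ttr. In astrocyte-like cells they summed to 1619 and 126 CPM. The choroid plexus markers were thus about as high in astrocyte-like as in ependymal-like cells of the same library.

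The other class with members well above the common level was olfactory-sensory-neuron-like and found in N-PRα-KO, with 51 cells. These neurons of the nose, whose dendrites carry long sensory cilia that do not beat in the mouse, are not cells of the cortex. Omp, their defining marker, had 5120 CPM. Markers of olfactory and airway epithelium were present too, Cyp2g1 at 1460 CPM, Sec14l3 at 1407 and Scgb1c1 at 420. All 14 Ift genes were detected, at a median of 86.0% of the ependymal-like level, and for 8 of them the counting interval of the ratio spanned no difference. For the other 6 it lay below the ependymal-like level and for 0 above it, beside 20.4% and 25.7% of all genes. Of the 59 motile-family members, 50 were detected, at a median of 10.7% over all 59, and 48 had intervals below the ependymal-like level, beside 20.4% of all genes. Cfap69 and Cfap20 alone had intervals above it, beside 25.7% of all genes. Cfap69, which is known from olfactory cilia, had 320 CPM against 220 in ependymal-like cells (log2 0.54, interval 0.27 to 0.81), and Cfap20 had 223 against 172 (0.38, 0.05 to 0.69). Ift43, at 114 against 102, and Ift122, at 60.6 against 49.1, were highest here as well, with intervals that spanned no difference. Tmem212 was at 53.4 CPM here and 1674 CPM in ependymal-like cells.

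Within the astrocyte-like class the members split by cluster. In each library a cluster rich in Thbs4, a secreted protein made by some astrocytes, those of the subventricular zone among them, was set against the other astrocyte-like clusters. This split was made after the clusters were seen. The Thbs4-rich cluster held 240 N-PRα-KO cells and 789 WT cells, with Thbs4 at 929 CPM against 9.01 and 342 against 9.33. The motile families summed to 962 CPM there against 499 in the other N-PRα-KO clusters, and to 740 against 288 in WT. Of the 54 members for which a ratio could be formed in both libraries, 22 had intervals above no difference in both, beside 26.2% of all genes with a ratio in both. Dnaic1 alone had intervals below it in both, beside 7.24% of all genes.

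The 22 covered several roles: Dnah2, Dnah5 and Dnah7a of the arms, Rsph1, Rsph4a and Rsph9 of the spokes, Cfap44, Cfap46, Cfap54, Cfap69, Cfap74 and others, and the transport genes Ift57, Ift74, Ift80, Ift81, Ift88 and Ift122. Dnah5 had 26.2 CPM against 2.88 in N-PRα-KO and 58.5 against 1.91 in WT. Cfap44 had 74.0 against 14.8 and 57.2 against 2.55, and Cfap54 had 45.9 against 14.1 and 44.0 against 4.46. Ift80 had 71.1 against 19.5 and 102 against 24.2. Dnaic1 went the other way, at 27.1 against 44.7 and 9.95 against 25.2. Ependymal markers were mixed. Of the 10, 4 had intervals above no difference and 1 below it in N-PRα-KO, and 6 above and 1 below in WT. All 10 were detected on both sides, and they summed to 551 CPM in the Thbs4-rich cluster against 576 in N-PRα-KO, and to 234 against 285 in WT. Tmem212 had 46.8 CPM against 58.4 in N-PRα-KO and 8.71 against 6.79 in WT, where it was at 0.651% of its ependymal-like level. Foxj1 moved with the members, at 67.4 against 16.9 and 15.8 against 4.88. Rarres2, Fam216b and Gm973 were the other markers with intervals above no difference in both libraries. The Thbs4-rich cluster had less Aqp4, a water channel of astrocytes, at 241 CPM against 2083 and 445 against 3272.

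**Figure D4:**
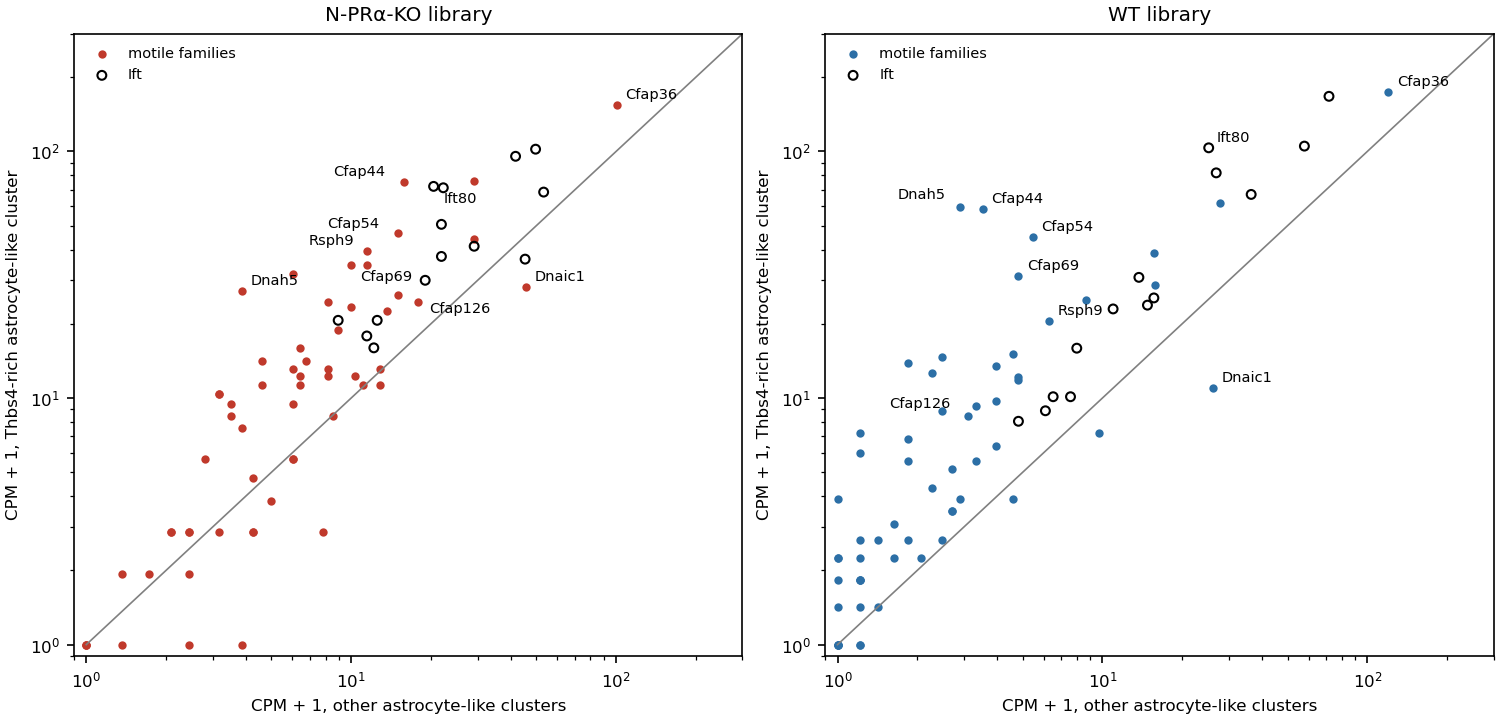
CPM plus 1 of each member in the Thbs4-rich astrocyte-like cluster (vertical) against the other astrocyte-like clusters (horizontal) in each library, both axes logarithmic, with the line of equal level. Dnah5, Cfap44, Cfap54 and Ift80 lie above the line in both libraries and Dnaic1 lies below it in both.

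Between the libraries, 50 of 72 members with a ratio were higher in N-PRα-KO than in WT ependymal-like cells, beside 52.8% of all genes. The median log2 ratio of the members was 0.35, and that of all genes was 0.04. At least 2-fold higher were 15 members, beside 17.9% of all genes, and at least 2-fold lower was 1, Dnah8, beside 8.71% of all genes. The Dnah8 ratio rested on only 10 UMIs in N-PRα-KO and 9 in WT. Counting intervals lay above no difference for 37 members and below it for 10, beside 24.5% and 23.6% of all genes. Tekt1 was 119.6 CPM in N-PRα-KO and 23.1 CPM in WT (log2 2.37, interval 1.93 to 2.84), Ift46 169 and 33.2 (2.35), and Ift27 96.5 and 19.1 (2.34). Dnah10, at 69.6 and 22.1 (1.65), and Cfap45, at 161 and 51.8 (1.64), came next. Cfap52, a protein inside the doublet, was 206 and 351 CPM (-0.77, interval -0.91 to -0.63), the lowest among members with at least 20 UMIs in either library. Dnah7c was at -0.59, Ift74 at -0.58, Cfap58 at -0.53 and Ift80 at -0.50. Foxj1, at 652 and 431 CPM, had a log2 ratio of 0.60, and -0.24 once the trend described next was removed.

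GC content moved with this difference. Across 11820 genes, the log2 ratio of the libraries in ependymal-like cells rose with the GC content of the last 500 transcript bases, with a Spearman's rho of 0.6175. This is across genes, which share the same 2 libraries. In 5 bins of all genes by GC content, the median log2 ratio was -0.53, -0.24, 0.02, 0.44 and 1.06 from lowest to highest GC. The members in those bins had medians of -0.06, -0.12, 0.00, 0.53 and 0.82, and 21 of them were in the bin with the highest GC and 6 in that with the lowest. With the GC trend of all genes removed, the median of the members was 0.01, 36 of 72 were higher in N-PRα-KO, beside 47.4% of all genes, and 3 instead of 15 were at least 2-fold higher, beside 10.1% of all genes. Those 3 were Ift46 at 2.06, Ift27 at 1.36 and Tekt1 at 1.32, while Cfap52 stood at -0.69. At a mitochondrial limit of 15%, 9 members were at least 2-fold higher.

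**Figure D5:**
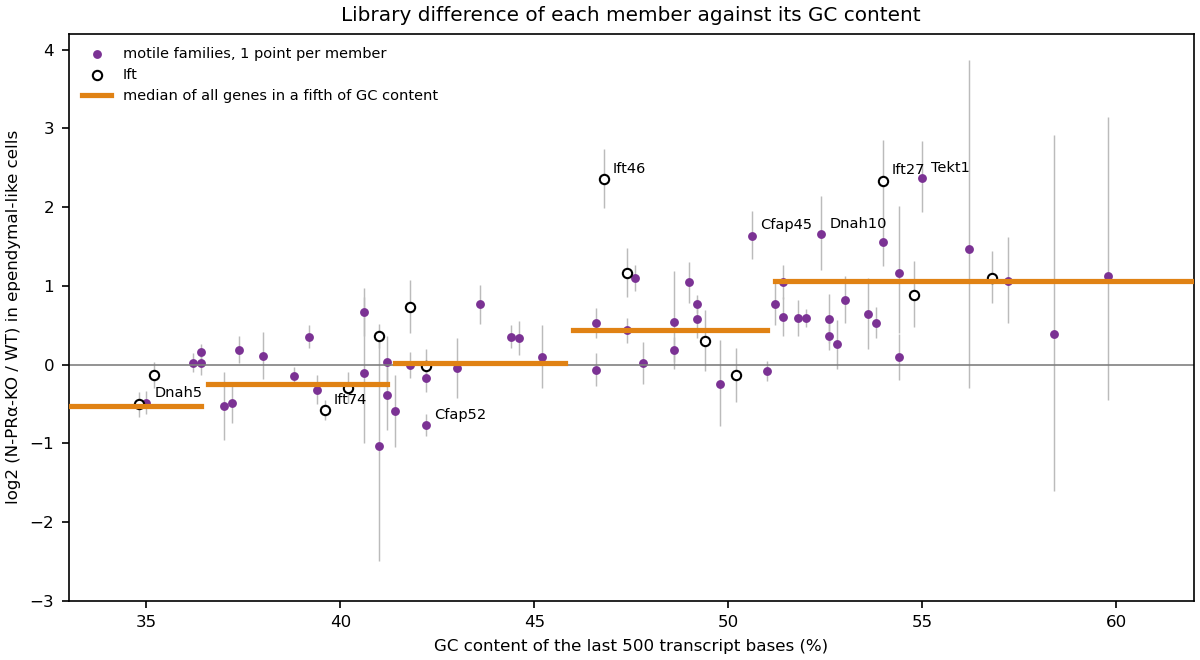
Log2 ratio of CPM between N-PRα-KO and WT in ependymal-like cells (vertical, bars are 95% counting intervals) against the GC content of the last 500 transcript bases in percent (horizontal), with the medians of all genes in 5 bins of GC content in orange. Member medians are -0.06, -0.12 and 0.00 in the 3 bins of lowest GC and 0.53 and 0.82 in the others, while the orange medians rise from -0.53 to 1.06, and Ift46, Ift27 and Tekt1 lie above them.

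The regulators of ciliogenesis, outside the members, were mostly lower in N-PRα-KO, with a median of -0.89 on the log2 scale and 6 of 15 at least 2-fold lower, beside the 8.71% of all genes. With the GC trend removed the median was -0.54 and 3 of 15 were at least 2-fold lower, beside 8.84% of all genes. Tfdp1, a partner of the E2F factors, was 24.0 and 66.4 CPM, and Rfx3 was 55.7 and 131 CPM. Gmnc, which starts the multiciliated programme, was 9.91 and 23.6 CPM. These 3 genes were picked after their values were seen, and with the trend removed their ratios were -0.76, -0.53 and -0.54. None of them was then at least 2-fold lower. Foxj1 and Rfx2, the regulators with the most ependymal-like UMIs, went the other way, with higher CPM in N-PRα-KO before the trend was removed.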

How the data were processed

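Each deposited table gives raw UMI counts, 1 row per cell and 1 column per gene. The authors ran the BD Rhapsody WTA Analysis Pipeline to obtain these counts, per the file headers, in version 1.10 for N-PRα-KO and 1.10.1 for WT, against GRCm38 with GENCODE M19. The headers show different run dates and that the pipeline had picked the cells. The submitters' processing notes name GRCm38 and mm10. The aligner and the use of strand in counting are not given in the sources used here. UMIs come from transcript ends, so levels were compared between cells and not between genes.

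Cells under 300 genes or over 25% mitochondrial UMIs were dropped, as were cells that Scrublet (scanpy 1.11.5) called doublets, 10 (0.238%) in N-PRα-KO and 174 (1.73%) in WT; in N-PRα-KO so few calls may mean that doublets remain. Leiden clustering (leidenalg 0.10.2, resolution 1, 30 components, 20 neighbours, 2000 variable genes per library) gave 38 clusters. Members and listed cilium genes were kept out of it. Clusters were named from marker lists when a class had at least 3 detected markers, a mean log2 fold of at least 0.5 and a lead of 0.5. These thresholds, and the cells a fold was taken against, were set after the clusters were seen. All members and lists were chosen with earlier results of these data known.

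UMIs were summed per class and library. With 1 library per genotype there was no test. CPM carry exact Poisson, shares exact Clopper-Pearson and log2 ratios exact conditional 95% intervals (scipy 1.17.1), which cover counting error only. Counts under 3 were set to 3 for a ratio, and no ratio was formed where both sides were at or under 3 or where the 3 alone would set the direction. The GC trend was a lowess curve (statsmodels 0.14.6) over genes with at least 20 ependymal-like UMIs in either library, on the last 500 bases of each gene's longest transcript in GENCODE M21, which is on the same build and also gave the positions. Genes named were the 4 members per family with the most ependymal-like UMIs, up to 8 members highest in another class, the 5 highest and 5 lowest ratios between libraries, and 2 genes per list; other genes named were chosen after their values were seen. The counting of calls and ratios was tested on simulated data. The alternatives were other cell filters, clusterings, class rules, scalings and minimums.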

Additional observations from a re-analysis of the deposited data

Results flagged for a closer look

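Barcodes left out by the mitochondrial limit also had UMIs of the motile families. They were flagged because the lower ends of the intervals lay above the level of 3 UMIs, in data that the main comparisons left out. In N-PRα-KO the 2659 such barcodes with enough genes had 670.2 CPM (counting interval 654 to 686), and 71 of them had UMIs of 10 or more motile-family members. In WT the 851 such barcodes had 656.9 CPM (627 to 688), and 32 of them had 10 or more. Without mitochondrial UMIs in the total the levels were 1484.8 CPM in N-PRα-KO and 995.75 CPM in WT.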

How the results depend on the processing

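No paired analysis was possible because each genotype had 1 library. The cause of each shift was not tested beyond the values given. With ependymal cells chosen one by one from markers, the members highest in that class in N-PRα-KO were 31, the median log2 ratio to other cells was 3.56 and the motile families summed to 9444 CPM. With the GC trend removed, the median log2 ratio between the libraries was 0.0085, 3 members were at least 2-fold higher in N-PRα-KO, and the signs of Ift43 (-0.062) and Tekt4 (-0.132) reversed. At a mitochondrial limit of 15% that count was 9, and the motile families summed to 10268 CPM in N-PRα-KO and 8349.7 CPM in WT. Without mitochondrial UMIs in the total the sums were 11459 and 9448 CPM. The WT sum was 7779 CPM with Scrublet calls kept and 8295 CPM with thinned cells. In WT the members highest in ependymal-like cells stayed between 68 and 71 of those tested under every alternative run. With cells chosen one by one, the 49 WT cells left out fell under the 50-cell minimum, so that count could not fall through them. Members with under 50 UMIs in all, such as Cfap73, Cfap99, Tekt5 and Dnah2os, are limited by depth.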
